A study of Homo sapiens with 27 samples.

Results

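The genes that build tight junctions and desmosomes were measured in 9 human cell lines by RNA sequencing. The group held 41 genes, chosen by symbol among the protein-coding genes of GENCODE release 29: 24 claudins, the 7 desmocollins and desmogleins, the 5 desmosomal plaque genes DSP, JUP and PKP1 to PKP3, the MARVEL-domain genes OCLN and MARVELD2, and 3 scaffold genes of the TJP family. They were 41 of 34584 genes with a matched transcript, of which 19675 were protein coding. The rule used symbols and gene type, with no threshold on a measured value.

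Tight junctions close the space between neighbouring epithelial cells. Claudins form the strands of the junction and set which ions and small solutes pass between cells, occludin and tricellulin sit in the same strands or at the corners where cells meet, and the TJP (ZO) proteins tie the strands to actin. Desmosomes are separate spot-like contacts in which desmogleins and desmocollins hold neighbouring cells together, and plakoglobin, plakophilins and desmoplakin link these cadherins to keratin filaments.

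Poly-A RNA of each line was sequenced in 3 libraries, called biological replicates in the series design. Nothing says whether these came from cultures kept apart. The p-values between single lines and over all lines reflect the spread among 3 libraries of a line, which may therefore be technical. Where groups of lines are compared with the line as the unit, the p-values reflect the spread between lines instead. A549 (lung adenocarcinoma), RT4 (a bladder papillary tumour line, labelled kidney), HepG2 (a liver tumour line) and Caco2 (colorectal adenocarcinoma) are called carcinoma lines here. SK-Mel 28 and SK-Mel 24 (melanoma, labelled skin), U2-OS (osteosarcoma, labelled bone), U251 (a glioma line, labelled brain) and BJ (fibroblasts, labelled epithelial) are called the other lines. All cells were untreated as far as the labels say, and each line is 1 established culture line, so a line stands for itself and not for its tissue. A549 and BJ grew in DMEM and RT4 and U2-OS in McCoy medium, while HepG2, Caco2, SK-Mel 28 and U251 grew in EMEM. SK-Mel 24 also grew in EMEM but with 15% serum, where every other medium held 10%. Line and medium cannot be told apart.

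Libraries held 15597117 to 32583547 estimated counts. In HepG2 the mitochondrial genes held 71.1% of the counts in replicate 1, 33.8% in replicate 2 and 32.6% in replicate 3, and elsewhere between 0.928% and 5.72%. TPM (a level per transcript length, scaled to a fixed total) is a share of the library. Most HepG2 levels printed for the main members are therefore also given over non-mitochondrial genes, but not those of CLDN12, DSG2, DSP and PKP2. Among genes with at least 1 TPM in both lines, the median log2 ratio of HepG2 over Caco2 was -1.70 in TPM as deposited and -0.74 without mitochondrial genes. The edgeR fold changes below are scaled by trimmed means (TMM) and centre near 0 for all genes, so a HepG2 fold change can have the opposite sign to its TPM difference. The labelled tissue was checked against marker genes fixed with the design. RT4 had almost no CUBN (0.0112 TPM) and LRP2 (0.00603 TPM), which mark kidney tubules, but had the urothelial genes UPK2 (163 TPM) and UPK1B (129 TPM). PAX8, also on the kidney tubule list, had 2.0 TPM in RT4, within the 0.275 to 6.03 TPM of the other lines. BJ had the fibroblast collagen COL1A1 at 2877 TPM and the epithelial genes EPCAM and CDH1 at 0.668 and 0.363 TPM, but of the other epithelial markers it had KRT18 at 750.4 TPM, KRT19 at 261.5 TPM and KRT8 at 34.0 TPM. A549 had the lung genes SFTPB, SFTPC and NKX2-1 at 0.422 TPM or less, but KRT18, also on the lung list, at 5611 TPM. SK-Mel 24 had the melanocyte genes PMEL, MLANA and TYR at 3.10 TPM or less, but SOX10 at 252 TPM and S100B at 7822 TPM.

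The 41 genes were not used evenly. A total of 15 stayed under 1 TPM in every line, 26 reached 1 TPM in some line, and 5 did so in every line. In such bulk libraries, fewer cells with a transcript and less of it per cell cannot be told apart. A mean of 20 TPM in some line was reached by 16 genes, among them 7 claudins. The summed level of all 41 genes was 1060 ± 154 TPM in RT4, 978 ± 157 TPM in Caco2 and 700.1 ± 172 TPM in A549, against 94.9 ± 5.19 TPM in BJ and 121 ± 22.8 TPM in U251 (SD, n = 3 each). HepG2 had a sum of 119 ± 50.1 TPM, or 267 ± 25.9 TPM without mitochondrial genes, which was close to the 240 ± 14.6 TPM of U2-OS on that scale.

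**Figure D1:**
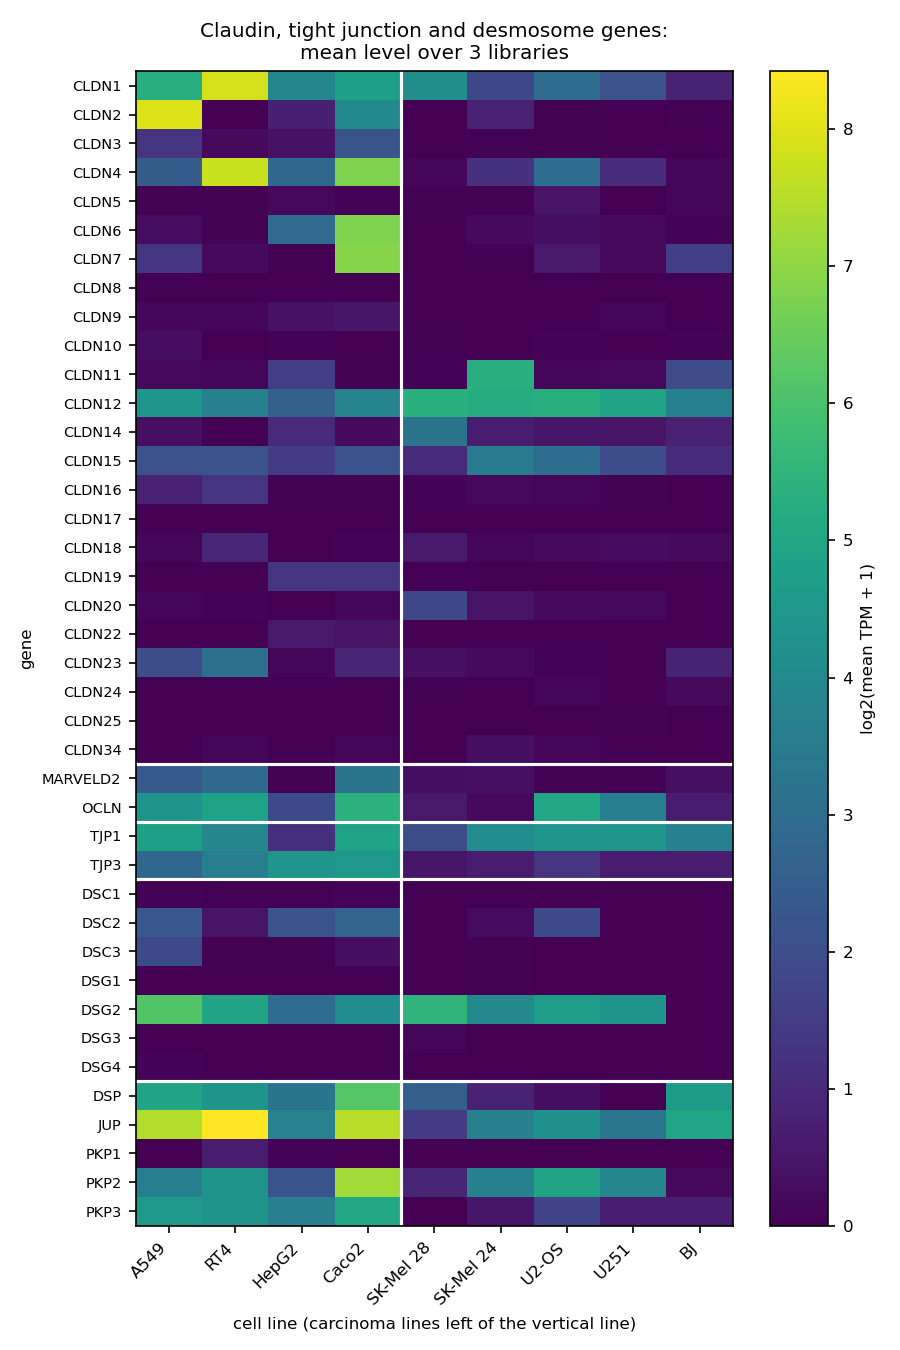
Mean level of 40 of the 41 genes (rows, grouped by family) in each of the 9 lines (columns), as log2(mean TPM + 1) over 3 libraries. CLDN2, CLDN6, CLDN7 and CLDN11 are each bright in 1 line, while CLDN12 is seen in all 9. In BJ, DSP in the bottom block is at 23.3 TPM, while the DSG2 cell in the block over it is empty (0.00834 TPM).

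Over all lines, edgeR's quasi-likelihood F test called 98.3% of the 17220 genes tested as differing between lines at an adjusted p under 0.05. All 30 members with enough counts to be tested were called too, a share that such a background makes uninformative, and 11 members were not tested. Line-enriched genes lay at least 2 log2 units above each other line and passed the test against all of them. This rule called 14.1% of genes and 9 of the 30 members tested. They were CLDN2 and DSC3 in A549, CLDN1 and PKP1 in RT4, CLDN6, CLDN7 and PKP2 in Caco2, CLDN20 in SK-Mel 28 and CLDN11 in SK-Mel 24. HepG2, U2-OS, U251 and BJ had none. The calls of 3 of the 9 rested on single libraries: CLDN6 lost it without Caco2 replicate 2, CLDN11 without SK-Mel 24 replicate 3 or HepG2 replicate 2, and CLDN20 without any library of SK-Mel 28 or SK-Mel 24.

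A549, RT4 and Caco2 differed in their leading claudins, while HepG2 was led by CLDN1, at 32.7 ± 8.35% of its claudin TPM, with CLDN4 at 16.2 ± 4.95% and CLDN6 at 16.1 ± 2.46%. CLDN1, a barrier-forming claudin of many epithelia, had 262.5, 211.7 and 230.7 TPM in RT4. The next levels were 36.2, 39.9 and 39.9 TPM in A549 and 27.8, 27.0 and 23.7 TPM in Caco2. The RT4 libraries stood apart from every other library, and the A549 and Caco2 libraries did not overlap each other but missed the test (log2 fold change 0.46 ± 0.27 SE, adjusted p = 0.155). SK-Mel 28 had 22.8, 15.8 and 11.6 TPM and HepG2 had 4.85, 16.3 and 21.1 TPM (29.2 ± 6.67 TPM without mitochondrial genes), while BJ stayed at 0.675 to 0.872 TPM. On the edgeR scale the nearest line to RT4 was HepG2, 2.43 log2 units lower (adjusted p = 5.94e-07 over all 8 contrasts).

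CLDN4, another barrier claudin and a receptor of Clostridium perfringens enterotoxin, was shared by 2 lines. It had 160.6 and 218.8 TPM in the lower 2 libraries of RT4 (209.4 ± 44.9 TPM over the 3), against 121, 77.8 and 132 TPM in Caco2. The 2 lines did not overlap (log2 fold change 1.12 ± 0.32 SE, adjusted p = 0.00445), and all other libraries were at 11.1 TPM or less as deposited (HepG2 14.9 ± 6.02 TPM without mitochondrial genes). Together CLDN1 and CLDN4 made up 50.2 ± 7.17% and 44.4 ± 7.46% of the claudin TPM of RT4 (SD, n = 3).

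CLDN2, which forms pores for cations and water in leaky epithelia, was highest in A549. Its levels were 126, 229.7 and 390.2 TPM in A549 and 10.2, 20.8 and 14.2 TPM in Caco2. The A549 libraries differed among themselves by more than those of Caco2 but lay above all of them. All other libraries had 1.01 TPM or less as deposited (HepG2 1.37 ± 0.249 TPM without mitochondrial genes), and RT4 had 1 count over its 3 libraries. Caco2 was next on the edgeR scale, 3.88 log2 units below A549, and CLDN2 made up 74.5 ± 8.87% of the claudin TPM of A549.

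Caco2 carried a pair of claudins that were nearly missing from RT4. CLDN6, a claudin of embryonic epithelia, had 104, 122 and 102.5 TPM in Caco2 and 2.79, 8.36 and 8.86 TPM in HepG2 (14.3 ± 0.981 TPM without mitochondrial genes), and at most 0.367 TPM in any library of another line. CLDN7, which in many epithelia lies along the sides of cells as well as in the junction, had 90.3, 114 and 147 TPM in Caco2. The next line was BJ with 1.08, 2.32 and 2.41 TPM, and SK-Mel 28 had no count in any library, so CLDN7 was at least 2620-fold higher in Caco2 than in SK-Mel 28 (against 3 counts over the 3 libraries, counting error only). The HepG2 and Caco2 levels of CLDN6 and the BJ and Caco2 levels of CLDN7 did not overlap. CLDN4, CLDN6 and CLDN7 each made up about the same part of the claudin TPM of Caco2, at 27.4 ± 5.99%, 27.6 ± 4.83% and 28.9 ± 4.54%. The exons of CLDN6 overlap those of TNFRSF12A (up to 364 TPM in a line) and those of CLDN7 overlap ELP5 (up to 89.9 TPM), both on the opposite strand. The kit marks strand, but no source used here gives the strand setting of the quantification, so low values of both genes cannot be told apart from reads of these neighbours.

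The promoters of CLDN4, CLDN6 and CLDN7 are shown because the 3 genes share a high level in Caco2 but part ways in RT4, where CLDN4 alone was high. They run from 250 bases before to 50 after the RefSeq start on GRCh38.p14, 5′ to 3′ on the gene's strand: CLDN4 at chr7:73830746-73831045, plus strand, CLDN6 at chr16:3018134-3018433, minus strand and CLDN7 at chr17:7263164-7263463, minus strand. Capitals mark CACCTG, the E-box letters that SNAI and ZEB repressors are known to bind, read on both strands (CAGGTG where it lies on the other strand).
CLDN4: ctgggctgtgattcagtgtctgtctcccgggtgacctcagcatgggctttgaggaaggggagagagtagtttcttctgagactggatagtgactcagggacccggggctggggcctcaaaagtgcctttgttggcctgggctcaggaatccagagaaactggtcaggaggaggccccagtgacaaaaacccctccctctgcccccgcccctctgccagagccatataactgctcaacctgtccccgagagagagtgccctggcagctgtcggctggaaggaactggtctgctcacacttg
CLDN6: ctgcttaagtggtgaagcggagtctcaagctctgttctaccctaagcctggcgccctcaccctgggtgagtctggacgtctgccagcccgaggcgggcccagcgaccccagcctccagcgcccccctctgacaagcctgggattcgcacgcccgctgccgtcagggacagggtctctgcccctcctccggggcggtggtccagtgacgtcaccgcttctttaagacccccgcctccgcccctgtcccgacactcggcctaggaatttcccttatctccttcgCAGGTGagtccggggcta
CLDN7: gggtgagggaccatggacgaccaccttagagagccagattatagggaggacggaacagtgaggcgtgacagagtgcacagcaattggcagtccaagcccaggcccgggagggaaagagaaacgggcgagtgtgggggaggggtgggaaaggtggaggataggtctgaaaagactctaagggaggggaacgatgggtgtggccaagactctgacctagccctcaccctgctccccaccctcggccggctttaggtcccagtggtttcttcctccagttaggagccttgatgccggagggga
CLDN6 held 1 such match, and the windows of CLDN4 and CLDN7 held none. In Caco2, 81.9 ± 13.4% of the CLDN7 TPM lay on transcript ENST00000360325, which starts 735 bases downstream of the RefSeq start, so the window shown is not its start. In BJ, 92.3 ± 9.08% lay on ENST00000397317, which starts at the RefSeq base. In A549, which had 55 counts in all, 42.4 ± 6.94% lay there and 38.5% on ENST00000571932, which starts upstream of it.

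The remaining claudins above 20 TPM were not epithelial in their pattern. CLDN12, a claudin without the usual PDZ-binding end, was found in all lines: 36.1, 48.4 and 35.7 TPM in SK-Mel 28, 40.4, 37.8 and 30.1 TPM in SK-Mel 24 and 31.5, 37.9 and 43.7 TPM in U2-OS, against 10.8, 11.9 and 12.1 TPM in RT4. These 3 lines overlapped one another and lay above every library of RT4, Caco2, HepG2 and BJ in TPM as deposited. HepG2 was lowest in TPM at 4.96, but in edgeR it did not differ from its neighbour RT4 (log2 difference of RT4 over HepG2 -0.18, adjusted p = 0.505). Nor did it differ from Caco2 (HepG2 over Caco2 0.26 ± 0.22 SE, adjusted p = 0.329 in edgeR). No pair of neighbours in the order of the 9 lines passed the test except A549 above Caco2 (adjusted p = 0.0243), and CLDN12 was the largest part of the claudin TPM of U251 (76.1 ± 5.88%), U2-OS (61.8 ± 11.4%), BJ (57.8 ± 1.82%) and SK-Mel 28 (57.3 ± 6.81%). Its exons overlap those of CDK14 and GTPBP10 on the same strand.

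CLDN11, the claudin of myelin and of Sertoli cell junctions, had 32.7, 39.2 and 45.3 TPM in SK-Mel 24 and 3.39 TPM or less elsewhere as deposited (HepG2 4.94 ± 2.91 TPM without mitochondrial genes). Of the SK-Mel 24 level, 88.2 ± 0.63% lay on ENST00000489485, an annotated processed transcript without a coding sequence, and the protein-coding transcripts came to 2.45 ± 0.557 TPM. Over protein-coding transcripts SK-Mel 24 had 1.91, 3.02 and 2.41 TPM and overlapped BJ with 1.47, 1.94 and 0.701 TPM.

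Of the other claudins, 7 reached 1 TPM without reaching 20. CLDN3 had 3.60 TPM in Caco2 and 1.39 TPM in A549, CLDN23 had 7.55 TPM in RT4 and 2.97 TPM in A549, and CLDN14 and CLDN20 peaked in SK-Mel 28 at 8.39 and 2.51 TPM. CLDN15 was spread over all lines from 1.04 TPM in SK-Mel 28 to 9.92 TPM in SK-Mel 24. CLDN16 peaked at 1.43 TPM in RT4 (0.453 TPM over protein-coding transcripts), and CLDN19 had 1.49 TPM in both HepG2 and Caco2. CLDN17 had no count in any library, and CLDN5, which marks endothelium, reached 0.356 TPM at most. CLDN18 stayed under 1 TPM in every line, with its highest mean in RT4 at 0.867 TPM.

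**Figure D2:**
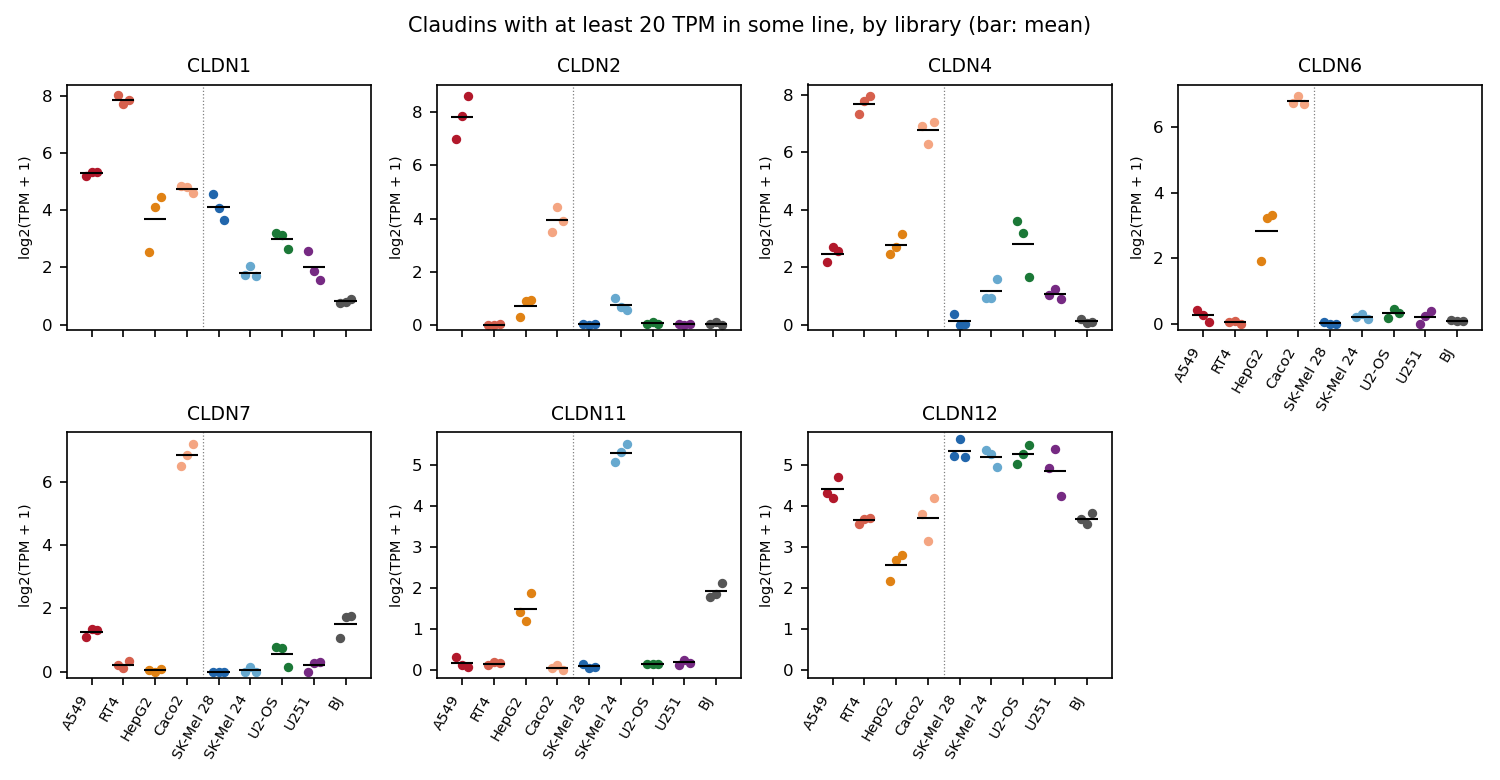
Level of the 7 claudins with at least 20 TPM in some line, as log2(TPM + 1) on the vertical axis, with 1 point per library, 3 libraries per line and a bar at their mean. Lines left of the dotted rule are the carcinoma lines. CLDN6 and CLDN7 are high in Caco2, CLDN2 in A549 and CLDN11 in SK-Mel 24, where most of the level lies on a non-coding transcript.

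Occludin did not follow the split between carcinoma and other lines. OCLN had 16.8, 18.6 and 23.6 TPM in A549, 19.3, 31.5 and 35.2 TPM in RT4 and 42.6, 22.5 and 59.9 TPM in Caco2, and 0.852, 2.74 and 4.57 TPM in HepG2 (5.55 ± 2.02 TPM without mitochondrial genes). U2-OS had 37.0, 32.0 and 25.3 TPM and U251 12.6, 13.5 and 7.87 TPM, while SK-Mel 28, SK-Mel 24 and BJ were under 1 TPM in every library. U2-OS overlapped RT4 and Caco2 in TPM, but in edgeR both lay above it, RT4 by 0.90 (adjusted p = 0.00447) and Caco2 by 1.45 log2 units (adjusted p = 4.42e-05). On that scale HepG2 lay 1.14 log2 units above U251 (adjusted p = 0.000547), against the order in TPM, and its difference from U2-OS was 0.04 ± 0.26 SE (adjusted p = 0.903). Between 12.1% and 36.6% of the level in a library of A549, RT4, U2-OS or U251 lay on ENST00000514370, a processed transcript, and partial copies of OCLN in the genome can share its reads. MARVELD2 (tricellulin, the protein of corners between cells) had 4.26, 6.58 and 8.50 TPM in A549, RT4 and Caco2 and 0.281 TPM or less in HepG2 (0.0906 ± 0.0418 TPM without mitochondrial genes) and the other lines.

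The scaffold genes TJP1 and TJP3 differed in their pattern. TJP1 (ZO-1) was broad, with means of 25.8 ± 2.83 TPM in A549 and 28.3 ± 4.12 TPM in Caco2, close to 20.3 ± 1.02 TPM in U2-OS and 20.5 ± 1.52 TPM in U251 (SD, n = 3 each). HepG2 (1.27 ± 0.356 TPM, or 3.58 ± 2.63 TPM without mitochondrial genes) and SK-Mel 28 (3.02 ± 1.01 TPM) were lowest. Between 25.0% and 71.1% of this TPM lay on ENST00000400007, a transcript of 1032 bases, in the line means, and a short transcript adds more to TPM than to counts.

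TJP3 (ZO-3), a scaffold found mainly in epithelia, had 4.43, 7.5 and 6.86 TPM in A549, 9.99, 15.1 and 8.17 TPM in RT4, 14.2, 25.6 and 20.1 TPM in HepG2 (48.8 ± 17.1 TPM without mitochondrial genes) and 27.8, 17.2 and 19.4 TPM in Caco2, against 2.14 TPM or less in every library of the other lines. The carcinoma and other libraries did not overlap. Over protein-coding transcripts alone TJP3 in HepG2 was 0.505 TPM, and 40.9 ± 23.1% of its level lay on ENST00000586032 (annotated for nonsense-mediated decay) and 52.3 ± 26.9% on ENST00000587641 (a processed transcript).

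Among desmosomal cadherins DSG2, the desmoglein of simple epithelia and heart, was the only gene above 20 TPM, and it was not limited to carcinoma lines. It had 63.0, 67.9 and 78.7 TPM in A549 and 23.7, 29.2 and 35.0 TPM in RT4. SK-Mel 28 came between them with 41.4, 45.5 and 43.3 TPM, and U2-OS (21.3, 23.2 and 30.1 TPM) and U251 (20.2, 24.5 and 13.8 TPM) overlapped RT4 or Caco2 (14.4, 12.4 and 21.7 TPM). A549 lay above all other libraries (against SK-Mel 28 the log2 difference was 0.67, adjusted p = 0.00799). BJ had 2 counts of DSG2 over its 3 libraries, where HepG2 had 3282, a ratio of 2870 with a 95% interval of 793 to 23700 that covers counting error only.

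The partner cadherins of DSG2 were low. DSC2 reached 5.72 TPM in Caco2, 3.94 TPM in A549, 3.49 TPM in HepG2 and 2.73 TPM in U2-OS, and DSC3 reached 2.74 TPM in A549. DSC1, DSG1, DSG3 and DSG4, which belong to stratified epithelia such as skin and hair, stayed at or below 0.103 TPM in every line. SK-Mel 28 had 43.4 TPM of DSG2 with 0.0134 TPM of DSC2, and RT4 had 29.3 TPM of DSG2 with 0.351 TPM of DSC2.

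Of the 5 plaque genes, each had its highest mean in a carcinoma line, and JUP, DSP and PKP2 averaged above 20 TPM in 1 of the other lines each. JUP (plakoglobin, which also serves adherens junctions) had 139, 195 and 184 TPM in A549, 250.3, 384 and 394 TPM in RT4 and 176, 159.5 and 215 TPM in Caco2. The next line in TPM as deposited was BJ with 36.2, 27.7 and 26.4 TPM. HepG2 had 5.06, 13.9 and 17.9 TPM (26.3 ± 3.84 TPM without mitochondrial genes). On the edgeR scale HepG2 lay 1.78 and BJ 1.355 log2 units above U2-OS, against the order of HepG2 and U2-OS in TPM. RT4 stood above A549 and Caco2, which overlapped each other. In U2-OS the level was 26.9, 21.4 and 4.34 TPM, with replicate 3 well under the others, and CLDN4 showed the same order in that line at 11.1, 8.1 and 2.18 TPM.

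DSP (desmoplakin, the link to keratin) had 74.2, 52.9 and 90.5 TPM in Caco2, 30.4, 26.4 and 30.5 TPM in A549 and 15.9, 21.8 and 20.5 TPM in RT4. BJ, a fibroblast line, had 21.8, 26.2 and 21.9 TPM, all above the RT4 libraries by a narrow margin (log2 difference of BJ over RT4 0.35, adjusted p = 0.446 in edgeR). BJ did not differ from A549 by the test (log2 difference of A549 over BJ 0.09, adjusted p = 0.876 in edgeR). The 7 desmosomal cadherin genes summed to 0.0144 TPM in BJ. SK-Mel 24, U2-OS and U251 were at 0.969 TPM or less in every library. ENST00000379802, the longer transcript, carried 80.3 ± 3.46% of the level in A549, 42.8 ± 14.8% in RT4, 18.0 ± 2.60% in HepG2, 35.4 ± 12.7% in Caco2, 69.4 ± 7.86% in SK-Mel 28 and 64.3 ± 8.48% in BJ. No test was run on these shares, and the estimates of the transcripts of 1 gene share reads.

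**Figure D3:**
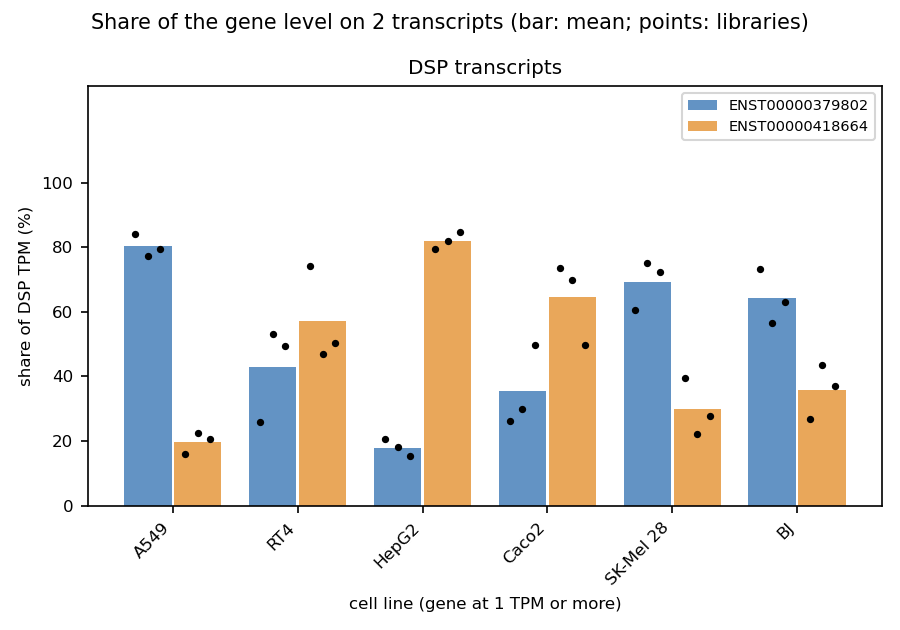
Share of the DSP level on ENST00000379802 and ENST00000418664, in percent of the gene's TPM, for lines in which DSP had at least 1 TPM. Bars are means of 3 libraries and points are libraries, and ENST00000379802 holds 80.3% in A549 and 18.0% in HepG2.

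The promoters of DSG2 and DSP are shown as the pair that parted in BJ, where DSP was at 23.3 TPM and DSG2 at 0.00834 TPM. They cover the same window around the RefSeq start on GRCh38.p14: DSG2 at chr18:31497927-31498226, plus strand and DSP at chr6:7541421-7541720, plus strand. Capitals again mark CACCTG on either strand.
DSG2: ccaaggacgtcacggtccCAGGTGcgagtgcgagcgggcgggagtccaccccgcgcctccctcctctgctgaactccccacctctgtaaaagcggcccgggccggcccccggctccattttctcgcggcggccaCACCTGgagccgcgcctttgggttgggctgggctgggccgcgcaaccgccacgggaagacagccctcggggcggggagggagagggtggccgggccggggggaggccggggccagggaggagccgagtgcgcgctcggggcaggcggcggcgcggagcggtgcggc
DSP: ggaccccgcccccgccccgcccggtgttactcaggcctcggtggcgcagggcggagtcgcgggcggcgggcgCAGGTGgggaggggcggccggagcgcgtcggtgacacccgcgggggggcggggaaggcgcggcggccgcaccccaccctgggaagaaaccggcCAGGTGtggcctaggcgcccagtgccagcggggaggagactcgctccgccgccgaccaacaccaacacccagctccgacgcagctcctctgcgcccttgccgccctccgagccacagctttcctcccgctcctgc
Both hold 2 matches, at bases -232 and -116 from the start in DSG2 and at -178 and -85 in DSP. Of the 41 members, 32 had a promoter in the RefSeq table (not CLDN5, CLDN8, CLDN9, CLDN19, CLDN23, DSG4, PKP2 and PKP3, among others), and 10 of these (31.2%) held CACCTG, against 19.7% of the 14792 coding promoters. The members with a match were CLDN3, CLDN6, CLDN18, CLDN25, DSC2, DSG1, DSG2, DSP, OCLN and TJP1, some of which stayed under 1 TPM everywhere. The TJP1 window is not the start of the 6 protein-coding TJP1 transcripts listed, which start 146546 bases or more downstream of the RefSeq start. The grainyhead motif AACCNGTT was in none of the 32 and in 1.61% of coding promoters, the GC box GGGCGG in 16 of the 32 and in 59.7%, and TATAAA in 1 (3.12%) and 9.30%.

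PKP2, the plakophilin of simple epithelia and heart, had 164, 109.8 and 182 TPM in Caco2. U2-OS followed with 29.8, 31.6 and 26.0 TPM and RT4 with 15.3, 20.9 and 21.9 TPM. SK-Mel 24 (12.2, 15.2 and 8.89 TPM) overlapped A549 (9.27, 11.7 and 13.4 TPM), while SK-Mel 28 was at 1.13 TPM or less and BJ at 0.255 TPM or less. PKP3 had 22.0, 24.9 and 19.2 TPM in A549, 14.1, 19.5 and 25.2 TPM in RT4, 4.32, 16.8 and 13.9 TPM in HepG2 (24.5 ± 4.37 TPM without mitochondrial genes) and 29.9, 32.6 and 35.1 TPM in Caco2, against 2.85 TPM or less in every library of the other lines. It separated the 12 carcinoma libraries from the 15 others. PKP1, a plakophilin of stratified epithelia, reached 0.594 TPM in RT4 and its line-enriched call rests on that level. DESeq2 dropped the line-enriched calls of PKP1 and CLDN20, leaving 7 of the 9, where it called 2045 genes in all in place of 2424.

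**Figure D4:**
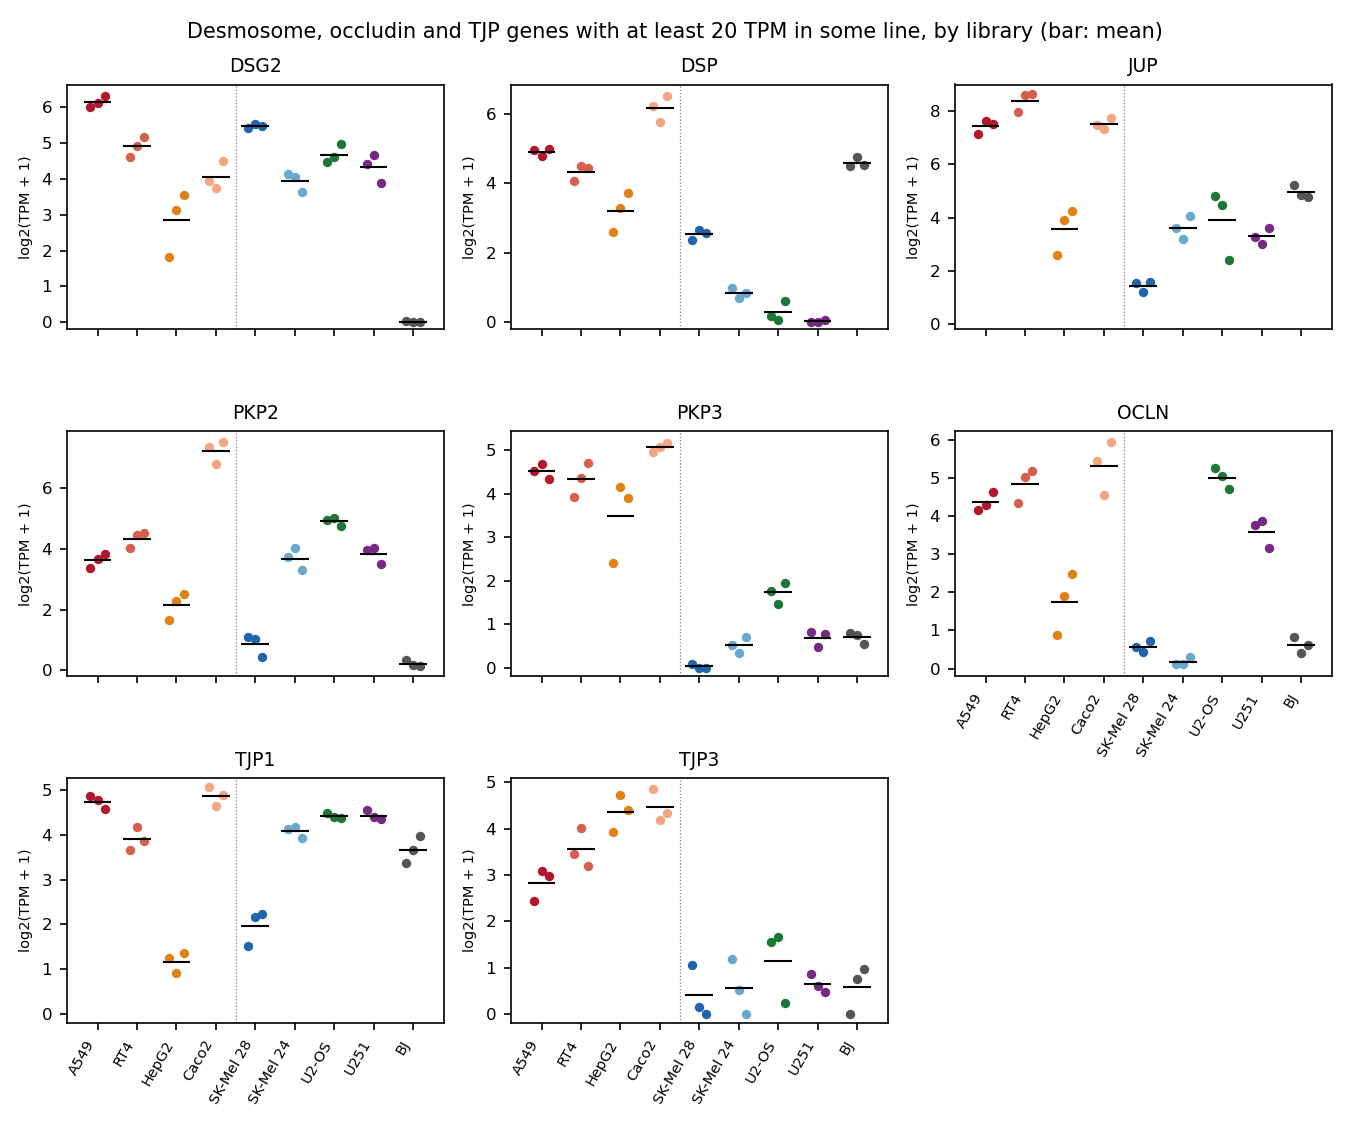
Level of DSG2, DSP, JUP, PKP2, PKP3, OCLN, TJP1 and TJP3 as log2(TPM + 1), with 1 point per library and a bar at the mean of 3. Lines left of the dotted rule are the carcinoma lines. PKP3 and TJP3 separate the carcinoma libraries from the others, DSG2 is missing from BJ alone, and DSP in BJ is close to RT4.

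With the line as the unit, carcinoma lines (n = 4) were set against the other lines (n = 5), a comparison chosen here rather than by the labels. Counts summed per line were tested by edgeR's quasi-likelihood test (a gene was called at an adjusted p under 0.05 where the log2 fold change was also 1 or more in size). It called 0.0833% of 15614 genes higher and 0.0833% lower. Of the 23 members tested, 0 were called higher and 0 lower. At an unadjusted p under 0.05, 12 members were higher and 0 lower, and 2689 genes passed in all. The median log2 fold change was 3.59 over the 23 members and 0 over all genes, and 20 of 23 were positive. DESeq2 on the same 9 columns tested 34 members and 24375 genes. It called 11 members higher and 0 lower, among 918 genes higher and 879 lower. A fit that takes the 27 libraries as the replicates called 21 of 30 members higher and 3 lower. It called 2514 of 17220 genes higher and 3027 lower, but its spread is that between libraries of a line.

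PKP3 came nearest to a call (log2 fold change 5.56 ± 0.97 SE, adjusted p = 0.0686), followed by CLDN3 (6.70 ± 1.29 SE, adjusted p = 0.0868) and TJP3 (5.57 ± 1.12 SE, adjusted p = 0.0958), all by edgeR. PKP3 was called when SK-Mel 28 was left out (adjusted p = 0.0355) and TJP3 when U2-OS was left out (adjusted p = 0.0124). These 3 genes were also those whose mean TPM in all 4 carcinoma lines lay above all 5 other lines, 3 of 26 members at 1 TPM or more in some line, where 1.03% of 16838 genes did so. None lay below in all 4, where 4.55% of genes did. CLDN1 joined them without mitochondrial genes, and TJP3 left over protein-coding transcripts alone. The separation of CLDN3 lay under 1 TPM in RT4 and HepG2. It had 0.171 TPM (11 counts) in RT4 and 0.336 TPM (29 counts) in HepG2, against 0.0404 TPM or less in the other lines. By family the median log2 fold change was 3.87 over 12 claudins, 2.27 over 2 desmosomal cadherins, 3.18 over 4 plaque genes and 3.97 over the 2 MARVEL genes. CLDN15 (0.00 ± 0.74 SE) and TJP1 (0.33 ± 0.59 SE) were near 0. The negative members were CLDN11 (-1.96 ± 2.23 SE), CLDN14 (-0.785 ± 1.87 SE) and CLDN12 (-0.71 ± 0.33 SE, adjusted p = 0.309 in edgeR).

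**Figure D5:**
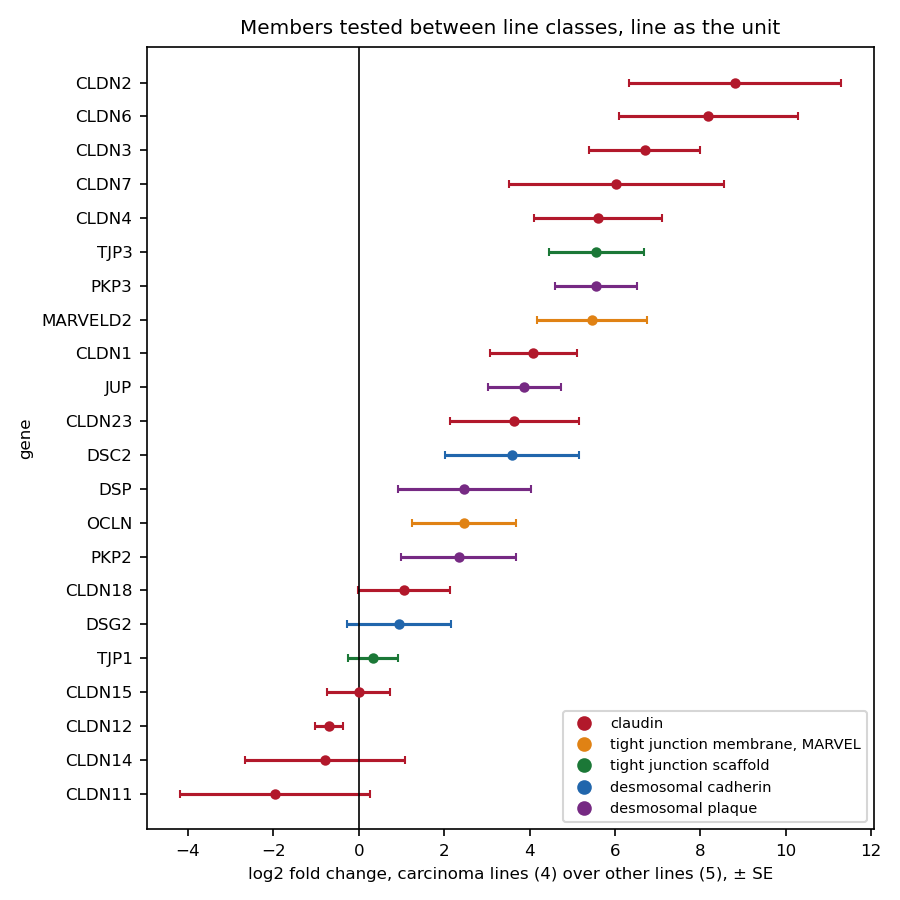
Log2 fold change of carcinoma lines over other lines for 22 of the 23 members tested, with its SE as the error bar, colour by family and the line as the unit (4 against 5). PKP3, CLDN3 and TJP3 have small errors for their size, CLDN2 and CLDN7 have wide ones, and no member passed the adjusted threshold.

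The 2 melanoma lines differed in junction genes in both directions. SK-Mel 28 against SK-Mel 24 called 15.5% of genes higher and 16.5% lower, and 7 and 10 of the 30 members tested. Higher in SK-Mel 28 were CLDN14 (log2 fold change 5.12 ± 0.79 SE), CLDN1 (2.83 ± 0.30), CLDN20 (2.82 ± 0.76), DSP (2.75 ± 0.41), CLDN18 (2.34 ± 0.56), DSG2 (1.65 ± 0.21) and OCLN (1.24 ± 0.43). Both lines were under 1 TPM for OCLN and for CLDN18 (0.496 TPM in SK-Mel 28, 0.0861 TPM in SK-Mel 24). Over protein-coding transcripts OCLN had 0.153 TPM in SK-Mel 28 and 0.138 TPM in SK-Mel 24, and CLDN18 had 0.053 and 0.026 TPM. Lower were CLDN11 (-8.97 ± 0.53), CLDN4 (-4.52 ± 0.62), PKP2 (-4.30 ± 0.22), CLDN15 (-3.05 ± 0.34), JUP (-2.68 ± 0.40), TJP1 (-2.63 ± 0.30) and DSC2 (-2.53 ± 0.51), with adjusted p of 0.000226 or less in edgeR, where those of the higher genes reached 0.0207. CLDN2 and PKP3 were also lower, with 2 and 3 counts over the SK-Mel 28 libraries against 85 and 49 in SK-Mel 24, ratios in favour of SK-Mel 24 of 47.3 (95% counting interval 12.7 to 397) and 18.2 (5.87 to 91.2). The OCLN call was lost without SK-Mel 28 replicate 2 (log2 fold change 0.98, adjusted p = 0.114) or SK-Mel 24 replicate 2 (1.09, adjusted p = 0.0897). SK-Mel 28 had more of the cadherin DSG2 and of DSP but less of the JUP and PKP2 that join them.

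RT4 against Caco2 called 19.4% of genes higher and 19.5% lower, and 9 and 12 of the 30 members. Higher in RT4 were CLDN1 (3.33 ± 0.29), CLDN23 (3.34 ± 0.43), CLDN18 (4.11 ± 0.55), CLDN16 (4.19 ± 0.77), CLDN4, DSG2 (1.05 ± 0.21), JUP (1.04 ± 0.36) and PKP1, which had 165 counts against 2 (ratio 81.8, 95% counting interval 22.3 to 681). Lower in RT4 were CLDN7 (-9.68 ± 0.54), DSC2 (-3.80 ± 0.35), PKP2 (-2.74 ± 0.19), DSP (-1.68 ± 0.38) and TJP1 (-1.01 ± 0.29), all as log2 fold change ± SE. CLDN6 had 2 counts in RT4 and 5964 in Caco2, a ratio of 3010 in favour of Caco2 with a 95% interval of 832 to 24800, and CLDN2 had 1 against 1964 (1980, 355 to 78300). CLDN3, CLDN9, CLDN19, CLDN22 and DSC3 were lower as well, each under 4 TPM in both lines. OCLN, PKP3 and TJP3 were not called. Calls near the fold limit of 1 ended without single libraries: DSG2 fell under it without RT4 replicate 3 (0.95), Caco2 replicate 1 (0.94) or Caco2 replicate 2 (0.97), JUP without RT4 replicate 3 (0.98) or Caco2 replicate 1 (0.97), TJP1 without RT4 replicate 3 (-0.92) or Caco2 replicate 1 (-0.75) and CLDN4 without Caco2 replicate 2 (0.99). CLDN9 lost its call without any 1 of RT4 replicates 1 and 3 and Caco2 replicates 1 and 2 (adjusted p up to 0.124 in edgeR). CLDN22, with 0 counts in RT4 and 35 in Caco2, was at least 11.8-fold lower in RT4 (against 3 counts over the 3 libraries), and it lost its call without any RT4 library (adjusted p up to 0.0960) or without Caco2 replicate 2, the one Caco2 library that held its counts.

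HepG2 against Caco2 called 22.6% of genes higher and 23.6% lower, and 5 and 12 of the 30 members. Lower in HepG2 were CLDN7 (-9.69 ± 0.58), MARVELD2 (-6.28 ± 0.82), PKP2 (-4.02 ± 0.21), CLDN2 (-2.76 ± 0.40), DSC3 (-2.43 ± 0.80), CLDN4 (-2.13 ± 0.33), CLDN6 (-2.09 ± 0.31), JUP (-2.06 ± 0.37), TJP1 (-1.69 ± 0.30), CLDN3 (-1.58 ± 0.63), OCLN (-1.41 ± 0.27) and DSP (-1.18 ± 0.38). Higher were CLDN19 (1.59 ± 0.57), DSC2 (1.11 ± 0.30), CLDN14 and CLDN11, the last pair with 84 and 287 counts in HepG2 against 3 each in Caco2 (ratios 61.4, 95% counting interval 20.3 to 304, and 210, 71 to 1020). DSC2 was called higher although it had 3.49 TPM in HepG2 against 5.72 TPM in Caco2, and 7.59 ± 1.27 TPM in HepG2 without mitochondrial genes. Without HepG2 replicate 1, the library with 71.1% mitochondrial counts, 8 members were called higher. The share of all genes called higher in that fit was not counted, so these 8 cannot be set against it. DSC2 fell under the fold limit without HepG2 replicate 3 (0.95) or Caco2 replicate 2 (0.82). CLDN19 lost its call without Caco2 replicate 1 or 2 (adjusted p up to 0.105 in edgeR), and CLDN3 without HepG2 replicate 1 or 3 or Caco2 replicate 1 or 3 (up to 0.141).

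A549 against RT4 called 19.9% of genes higher and 17.9% lower, and 6 and 9 of the 30 members. Higher in A549 were DSC3 (6.46 ± 0.79), DSC2 (3.29 ± 0.35), CLDN3 (2.67 ± 0.71), CLDN7 (2.43 ± 0.60), TJP1 (1.25 ± 0.29) and CLDN2, the last with 37813 counts against 1, a ratio of 34800 with a 95% interval of 6250 to 1380000. Lower were CLDN4 (-5.36 ± 0.38), CLDN18 (-4.0 ± 0.54), CLDN1 (-2.87 ± 0.29), CLDN16 (-1.81 ± 0.62), CLDN23 (-1.67 ± 0.39), JUP (-1.26 ± 0.36), OCLN (-1.15 ± 0.26) and PKP1, with 1 count against 165 (ratio in favour of RT4 179, 31.7 to 7120). DSG2 was 0.98 ± 0.21 log2 units higher in A549 (adjusted p = 0.00033 in edgeR) and missed the fold limit. OCLN fell just under that limit without A549 replicate 1 (-0.99), and CLDN16 lost its call without A549 replicate 1 or 2 or RT4 replicate 1 (adjusted p up to 0.0767 in edgeR). The comparisons RT4 against Caco2, HepG2 against Caco2 and A549 against RT4 share the Caco2 or RT4 libraries.

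The partners of these genes, in lists chosen by function, were counted in the same comparison of carcinoma with other lines. Of 29 tight junction partners, 28 were tested, and 1 was called higher and 0 lower (median log2 fold change 0.08), while 6 were higher and 4 lower at an unadjusted p under 0.05 in edgeR and DESeq2 called 4 higher and 3 lower. It was CRB3, a polarity protein of the apical membrane, with 6.13 TPM in A549, 26.8 TPM in RT4, 6.27 TPM in HepG2 and 31.7 TPM in Caco2 against 0.0442 TPM or less in the other lines (log2 fold change 9.21 ± 1.03 SE, adjusted p = 0.0195). Of 16 desmosome partners, 11 were tested, and 1 was higher and 0 lower (median 3.53), with 4 higher and 0 lower unadjusted and 5 higher and 1 lower in DESeq2. It was EVPL (envoplakin, a relative of desmoplakin), with 1.30 to 37.8 TPM in carcinoma lines against 0.109 TPM or less (11.72 ± 1.60 SE, adjusted p = 0.0306).

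Of 17 epithelial regulators, 12 were tested, and 1 was higher and 0 lower by edgeR (median 4.59), with 8 higher and 0 lower unadjusted and 9 higher and 0 lower in DESeq2. It was ELF3, an ETS factor of epithelia, with 373 TPM in A549, 497.5 TPM in RT4, 5.66 TPM in HepG2 and 145 TPM in Caco2 against 0.439 TPM or less (10.90 ± 1.09 SE, adjusted p = 0.0133). GRHL2, OVOL1 and OVOL2 were found in RT4 (31.1, 14.9 and 11.6 TPM) and Caco2 (15.6, 23.0 and 8.19 TPM), and GRHL2 was at 0.0205 TPM in A549 and 0.166 TPM or less in the remaining lines. Of 6 repressors of epithelial genes, 6 were tested and 0 were called higher or lower by edgeR (median -3.71), with 0 higher and 1 lower unadjusted and the same numbers in DESeq2. ZEB1 had 10.5 TPM in A549 but 0.0744 TPM in RT4, 0.675 TPM in HepG2 and 0.212 TPM in Caco2, against 3.37 to 19.6 TPM in the other lines. ZEB2 was highest in SK-Mel 24 at 75.3 TPM and SK-Mel 28 at 54.2 TPM. SNAI1 had 12.5 TPM in Caco2 against 20.8 TPM in SK-Mel 24, its highest line, and SNAI2 had 15.8 TPM in RT4 against 90.1 TPM in SK-Mel 28.

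Of 12 adherens junction genes, 11 were tested and 0 were called by edgeR (median -0.06), with 2 higher and 1 lower unadjusted and 1 higher and 1 lower in DESeq2. CDH1 (E-cadherin) had 40.6 TPM in A549, 212 TPM in RT4, 3.67 TPM in HepG2 and 216 TPM in Caco2 against 1.69 TPM or less in the other lines, and missed the threshold (adjusted p = 0.0517 in edgeR). Of 7 proteases and regulators of junction proteins, 6 were tested and 0 were called by edgeR (median 7.23), with 5 higher and 0 lower unadjusted and 5 higher and 0 lower in DESeq2. EPCAM, which binds CLDN7, had 8.70 TPM in A549, 212 TPM in RT4, 46.8 TPM in HepG2 and 886 TPM in Caco2 against 6.62 TPM in U2-OS and 0.668 TPM or less in the remaining lines. RT4 had EPCAM at 212 TPM with CLDN7 at 0.165 TPM.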

How the data were processed

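RNA of 9 cell lines was sequenced in 27 libraries from a stranded poly-A kit, per the labels' protocols. Kallisto 0.43.1, CASAVA 1.8 and the build GRCh38 are listed in the submitters' processing notes; no source used here gives the annotation release or the strand setting. Per the file headers, the authors' tables give an estimated count and a TPM per transcript. Of 176241 deposited transcripts, 159887 matched GENCODE 29, and the other 16354 (0.745% to 3.07% of the counts of a library) were left out.

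Both values were summed to genes. Estimated counts were rounded and tested with edgeR 4.0.16 (R 4.3.3): filterByExpr, TMM, robust quasi-likelihood, 1 coefficient per line over 27 libraries, Benjamini-Hochberg adjustment over all genes. The SE is the absolute log2 fold change divided by the root of F. Calls between groups needed an adjusted p under 0.05 with a log2 fold change of 1 or more in size. Depth was 15597117 to 32583547 estimated counts, and counting intervals cover counting error only. The scripts were tested on simulated data. Alternatives were DESeq2 1.42.0, RLE factors, no filter, the number after P in the titles as a block, and libraries or lines left out. Members, lists and comparisons were chosen with earlier results of these data known. Library values are given for members with at least 20 TPM in some line. Of each list, called genes are named, besides EPCAM, CDH1, GRHL2, OVOL1, OVOL2, ZEB1, ZEB2, SNAI1 and SNAI2. Promoters are from RefSeq, GRCh38.p14. Of the members, 1 is counted in the totals but not reported here by name.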

Additional observations from a re-analysis of the deposited data

How the results depend on the processing

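The 70 calls of members in the 4 pairs of lines were checked under RLE factors, no low-count filter, the replicate block and DESeq2. They were also checked with each library of the compared lines left out, but not with libraries of lines outside the pair left out. Under these settings 57 calls kept their direction and threshold, and 13 lost the threshold in at least 1 of them. None reversed. RLE factors lost 1, no filter 1, DESeq2 6 and the block 9. The calls lost by DESeq2 were of CLDN3, CLDN9, CLDN16, CLDN19, CLDN22 and JUP.

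The numbers after P in the titles were not taken to pair libraries: in SK-Mel 28 and SK-Mel 24 the deviations of same-numbered libraries correlated at 0.083, 0.242 and 0.149, and each SK-Mel 28 library but not each SK-Mel 24 library correlated best with its own number. With this replicate block, 5 members were line-enriched in place of 9, where line-enriched genes in all fell to 1263 from 2424. The 5 members were CLDN1, CLDN2, CLDN7 and PKP2, which were kept, and CLDN22 in HepG2. Members called higher in HepG2 than in Caco2 ranged from 5 to 8 over libraries of these lines left out, with 8 without HepG2 replicate 1. The share of all genes called was not counted in these fits. With 1 library left out, line-enriched members ranged from 7 to 10 and line-enriched genes in all from 2358 to 2540.

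Members called higher in carcinoma lines numbered 0 of 23 in edgeR, 11 of 34 in DESeq2 and 21 of 30 over 27 libraries, where 3 were lower. Over all genes, 13 of 15614, 918 of 24375 and 2514 of 17220 were called higher. With 1 line left out in edgeR, members called higher ranged from 0 to 1 and genes from 2 to 62. RLE factors moved the fold changes of all genes by at most 0.056 (log2, HepG2 against Caco2). The line with the highest level stayed the same for 15 of 16 named members without mitochondrial genes (TJP3 moved to HepG2, 48.8 TPM) and for 16 of 16 over protein-coding transcripts. Depth limits what can be said of members with few counts, such as CLDN22 and CLDN19.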
